A study of Mus with 2 samples.

Results

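The receptors described here are the chains through which macrophages sense colony stimulating factors and the cytokines IL-3, IL-6 and IL-10. They are Csf1r, Csf2ra, Csf2rb, Csf2rb2, Csf3r, Il3ra, Il6ra, Il6st, Il10ra and Il10rb, 10 genes chosen by symbol among 20144 genes that the arrays could name. A probe was counted for a receptor when its transcript accession belongs to that gene in RefSeq, which gave 14 of the 39429 probes. On each array all 14 probes stood well above background, so no receptor was lost to the filter on dim probes. Of all probes compared, 57.4% did so on the control (DMSO) array and 58.5% on the treated (GW4064) array.

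BMDMs, macrophages grown from the bone marrow of male 10-week-old C57BL6/J mice for 7 d with 10 ng/mL of M-CSF, were cultured for 24 h under M2 conditions. These conditions mean 10 ng/mL of IL-4, which both groups received. The control culture was given DMSO, the solvent, and the treated culture 10 µM GW4064, a synthetic agonist of the farnesoid X receptor. Each group is 1 array, and neither the labels nor the study's methods say how many mice it stands for, so there is no replicate error, no p-value and no test for any difference below. The title, source and treatment labels of the GW4064 sample name that compound, while its free-text description repeats the wording of the DMSO sample. The RNA came from whole cultures, in which fewer cells of a type and less RNA per cell cannot be told apart.

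Csf1r is a receptor tyrosine kinase for M-CSF and IL-34 and keeps macrophages alive in culture. The other members belong to cytokine receptor families without an enzyme of their own and signal through JAK kinases and STAT proteins. Most of them work as combinations of a chain that binds the ligand and a chain that signals, whereas Csf3r, the G-CSF receptor, pairs with itself. Csf2ra binds GM-CSF and Il3ra binds IL-3, and both use the common beta chain Csf2rb, while mice have a further beta chain for IL-3, Csf2rb2. Il6ra binds IL-6 and needs gp130, the product of Il6st, and Il10ra binds IL-10 and needs Il10rb, which IL-22 and interferon lambda receptors share. Csf3r is best known from neutrophils and their precursors.

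The arrays read the brightness of Cy3-labelled RNA at each spot. Signals below are the intensities after the scanner software had subtracted background, and differences are log2 values, GW4064 minus DMSO, scaled so that the 75th percentile, at 1209 for DMSO and 1265 for GW4064, equals 0. Where a gene has several probes, its difference is their mean. The lowest signal well above background was 15.7 with DMSO and 15.1 with GW4064, and the lowest receptor signals were 3622 (Csf2rb, second probe) with DMSO and 3461 (Il10ra) with GW4064. A bright signal does not rank the genes, since the probes for Csf1r alone ranged from 4770 to 169338 on the DMSO array.

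**Figure D1:**
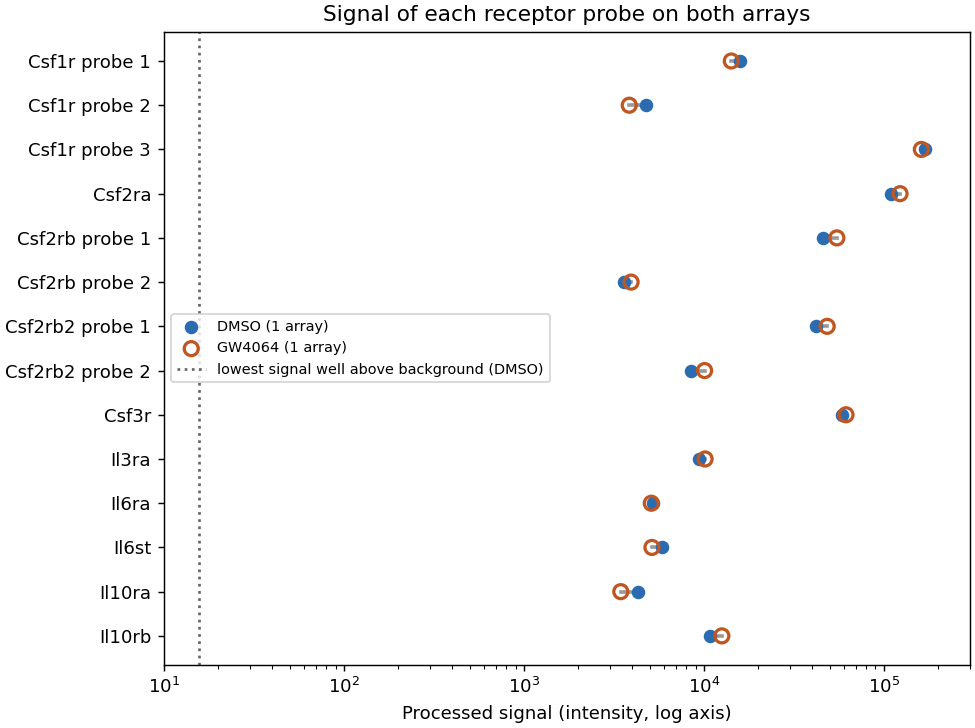
Processed signal (intensity, log axis) of each of the 14 receptor probes on the DMSO array (filled) and the GW4064 array (open), with the lowest DMSO signal well above background as a dotted line. Every probe lay far above that line, and the circles of each probe lay close together.

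No receptor differed 2-fold or more between the cultures. Among the 13533 genes measured, the share past 2-fold with GW4064 was 2.04% upward and 2.71% downward, against 0 of 10 receptors in either direction. At 1.5-fold the shares of all genes were 4.39% higher and 5.56% lower, and again 0 receptors passed. With the 75th percentile scaling, 6 receptors were higher and 4 were lower, beside 51.6% and 48.2% of all genes. When the arrays were centred on spike-in control RNA instead, which moved the median of all genes from 0.0069 to -0.17, all 10 were lower. This centring lowers each receptor by 0.17, more than the highest main value of 0.16 for Csf2rb2. The receptors' median was then -0.15, and the share of all genes lower with this centring was not counted. The median difference of the receptors was 0.028 in the main scaling and their median absolute difference 0.14, against 0.0069 and 0.12 for all genes.

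Dim probes scatter more than bright ones, so the receptors were also set beside the 3903 genes whose probes were at least as bright as the dimmest receptor probe. In that set, which was defined after the values had been seen, the shares past 2-fold were 0.487% higher and 0.0256% lower, while past 1.5-fold they were 1.18% and 0.589%, and a count of 0 of 10 receptors lies near these shares. The median absolute difference was 0.096, and 5% of the genes lay below -0.25 and 5% above 0.29. Il10ra lay outside this range, Il6st and Csf1r at its lower edge, and the remaining receptors inside it.

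**Figure D2:**
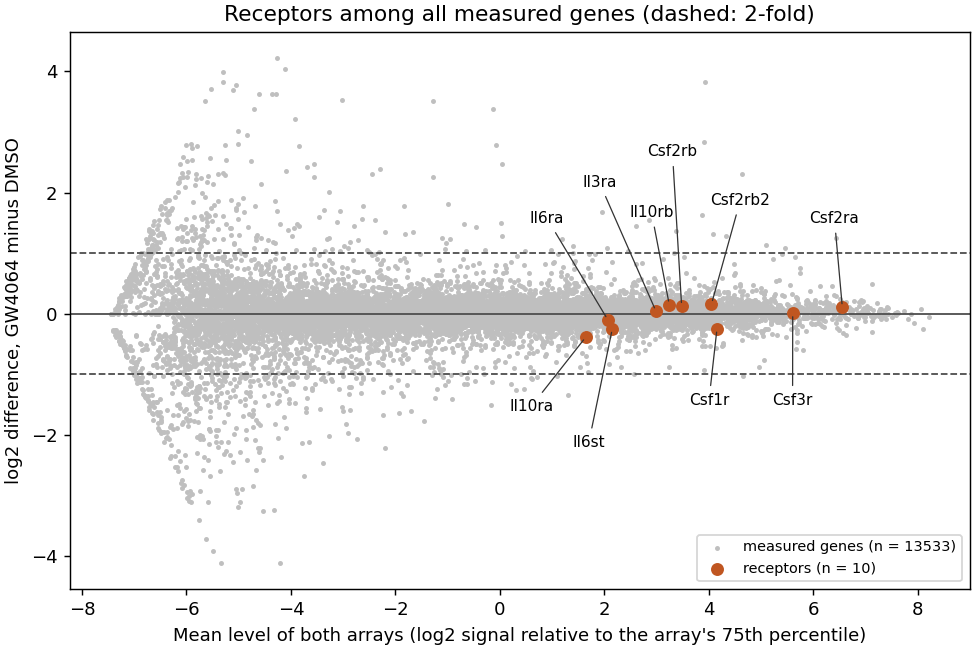
log2 difference (GW4064 minus DMSO) of 13533 measured genes against their mean level on both arrays, in log2 units relative to the 75th percentile, with the 10 receptors labelled and the 2-fold lines dashed. All receptors lay between the dashed lines and to the right of the wide scatter of dim genes, with Il10ra lowest at -0.38 and Csf2rb2 highest at 0.16.

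The scanner software gives each spot an error, which was 10% of the signal for every receptor probe and corresponds to 0.20 on the log2 scale for a difference between the arrays. Being the same share of the signal at each of these probes, this error is a nearly fixed width. Of the 14 differences, 4 were larger than this error and 0 were larger than 2 times it. The share of all probes past the same width was not counted, so these counts do not set the receptors apart. A second measure came from 75 probes of similar brightness that were printed 10 times, across whose copies the SD of the log2 difference was 0.071 in the median. Every receptor probe was printed once. Neither measure covers the variation between cultures.

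Csf1r was lower with GW4064 on each of its 3 probes, all matched to NM_001037859. The first gave signals of 15880 with DMSO and 14229 with GW4064, a log2 difference of -0.22. The second gave 4770 and 3856, a difference of -0.37, and the third gave 169338 and 161892, a difference of -0.13. The GW4064 array was the lower one each time, and the mean of -0.24 (SD over probes 0.12, n = 3) corresponds to a 1.18-fold lower signal. The first probe lay in an area of the slide with 11 other spots that differed 8-fold or more within 300 µm, and without it the mean was -0.25. Of the 3903 bright genes, 5.76% had a lower value, against 13.8% of all measured genes.

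The chains for GM-CSF and IL-3 were all slightly higher in the main scaling and all lower with spike-in centring. Csf2ra, the GM-CSF binding chain, had signals of 109260 with DMSO and 123257 with GW4064, a log2 difference of 0.11. Il3ra had 9425 and 10174, a difference of 0.045, which is smaller than the spread over copies. The GW4064 array was the brighter one for both, by less than the scanner's error of 0.20.

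Csf2rb, the common beta chain, gave signals of 45775 with DMSO and 54915 with GW4064 on its first probe and 3622 and 3948 on its second, with differences of 0.20 and 0.059. Csf2rb2, the beta chain for IL-3, gave 42018 and 48508 on the first probe and 8509 and 10110 on the second, with differences of 0.14 and 0.18. The GW4064 array was brighter on each of these 4 probes, and the means were 0.13 for Csf2rb and 0.16 for Csf2rb2. These genes are closely similar neighbours with 0 protein-coding genes between them in the RefSeq annotation, and how far a probe for one also binds RNA of the other was not tested. The second Csf2rb2 probe lay in an area with 2 other 8-fold spots, and without it the gene stood at 0.14. The difference of Csf2rb exceeded that of Csf2ra by 0.020 (scanner error 0.25) and that of Il3ra by 0.083 (scanner error 0.25), both less than the error.

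Csf3r had signals of 58516 with DMSO and 61730 with GW4064 and a difference of 0.011, the smallest among the receptors. Of the 3903 genes at least as bright as the dimmest receptor probe, 93.1% had a larger absolute difference. Csf3r itself was much brighter than that probe. Neutrophil markers stood apart from it, with 7 of 8 measured markers lower, a median of -0.62 and a summed signal of 13915 with DMSO and 9024 with GW4064. The 7 lower markers ranged from -0.94 for Mpo to -0.32 for Camp. Within this range Ngp, a granule protein of neutrophil precursors, had -0.79, S100a9 had -0.88, S100a8 had -0.45 and Elane had -0.34. Cxcr2, the marker that was higher, had 0.34 from dim signals of 35.5 and 47.1. The part of neutrophils in the value of Csf3r was not tested.

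The IL-6 receptor chains were both lower, under all 13 settings. Il6ra had signals of 5227 with DMSO and 5113 with GW4064, a difference of -0.098, and Il6st, which encodes gp130, had 5845 and 5155, a difference of -0.25. Only the value for Il6st passed the scanner's error of 0.20, and the chains differed from each other by -0.15 with an error of 0.29. Of the bright genes, 5.48% were lower than Il6st and 21.1% were lower than Il6ra. Among all measured genes these shares were 13.6% and 28.5%.

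The IL-10 receptor chains went opposite ways in the main scaling, while with spike-in centring both were lower. Il10ra, the binding chain, had signals of 4312 with DMSO and 3461 with GW4064, a difference of -0.38 or 1.30-fold lower, the largest among the receptors. Il10rb, the shared chain, had 10828 and 12607, a difference of 0.15. Of the bright genes, 2.05% were lower than Il10ra and 83.3% were lower than Il10rb. Il10ra lay close to the dim edge of that set, so most genes it was ranked among were brighter. Of all measured genes, 8.72% were lower than Il10ra and 78.2% were lower than Il10rb. The difference of Il10rb exceeded that of Il10ra by 0.54 (scanner error 0.29), and by 0.47 to 0.54 over the 13 settings of the analysis. Most of these settings shift both genes alike or leave both probes untouched, so they could not change this gap. Each chain was read at 1 spot, with 0 other 8-fold differences within 300 µm.

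**Figure D3:**
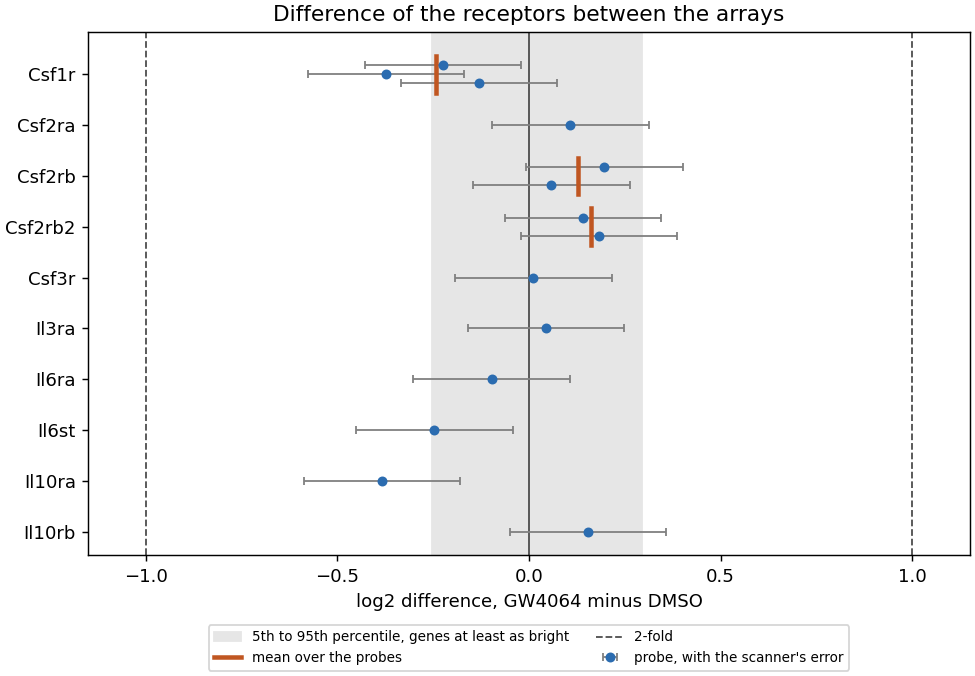
log2 difference (GW4064 minus DMSO) of each receptor probe with the scanner's error of 0.20 as bars, the mean over probes as a vertical mark for the 3 genes with several probes, and the 5th to 95th percentile of 3903 genes at least as bright as the dimmest receptor probe in grey. Il10ra lay to the left of the grey band at -0.38, and no bar reached the dashed 2-fold lines.

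The direction of 6 receptors, those higher in the main scaling, depended on the setting. Csf1r, Il6ra, Il6st and Il10ra were lower under all 13 settings, with ranges of -0.42 to -0.13, -0.27 to -0.093, -0.42 to -0.17 and -0.56 to -0.37. Csf2ra, Csf2rb, Csf2rb2 and Il10rb were higher under 12 settings and lower under 1, the centring on spike-in RNA, where they had -0.066, -0.046, -0.011 and -0.020. Il3ra was higher under 11 settings, and Csf3r was higher under 8 and lower under 5. For the 7 receptors with 1 probe, other filters and probe summaries could not change the value, so these counts include settings without effect.

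**Figure D4:**
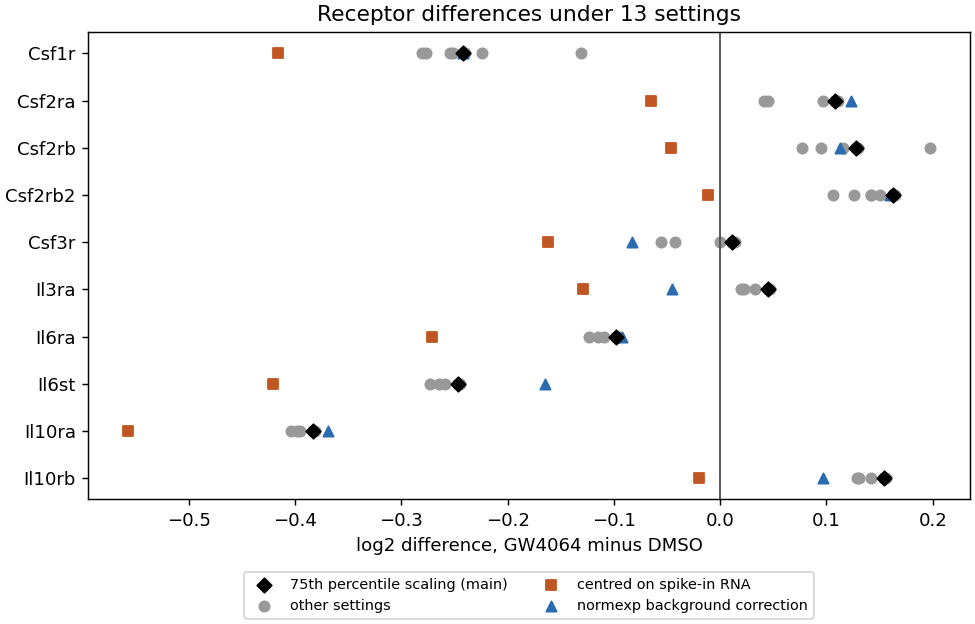
log2 difference (GW4064 minus DMSO) of each receptor under the 13 settings, with the 75th percentile scaling as a diamond, the centring on spike-in RNA as a square, the normexp background correction as a triangle and the others as grey circles. The squares are shifted to the left by 0.17 for every receptor, and 4 receptors stayed left of 0 under all settings.

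The genes around the receptors were described from 6 lists. Of 19 ligands, 18 had a matched probe and 11 were measured. Of these, 2 were higher and 9 lower, with a median of -0.27. The median was -0.11 after the normexp correction, with 1 higher and 10 lower. With only probes above background on both arrays, 8 ligands were left, 1 higher and 7 lower, and the median was -0.11. With spike-in centring, which moved the median of all genes to -0.17, all 11 were lower. Csf1, which encodes M-CSF, was lower on all 3 probes. Its probe printed 10 times gave signals of 2584 with DMSO and 1824 with GW4064, a difference of -0.57 (SD over spots 0.072, n = 9 spots unmarked on both arrays), and the other probes gave -0.52 and -0.46. Its mean of -0.52 stayed between -0.69 and -0.49 under the other settings.

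Il34, the other ligand of Csf1r, had a signal of 33.7 with DMSO and 15.3 with GW4064, where it was not well above background. The ratio of these signals after scaling was 2.30-fold lower. Il10 was well above background at 10 of its 10 spots with DMSO and at 4 of 10 with GW4064. Its mean signals were 44.8 and 15.5, a ratio of 3.03-fold lower after scaling. Both signals were dim, and after the normexp correction the differences were -0.42 for Il34 and -0.50 for Il10. Csf2, Csf3, Il3 and Il6, which encode GM-CSF, G-CSF, IL-3 and IL-6, did not rise well above background with DMSO or with GW4064.

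Of 14 related receptor chains, 8 were measured, 4 of them higher and 4 lower, or 2 and 6 with spike-in centring. Lifr, the receptor chain for LIF, had a mean of -0.30 over 3 probes that ranged from -0.42 to -0.076, and Osmr, the chain for oncostatin M, had -0.84 from dim signals of 59.7 and 35.0, with -0.38 after the normexp correction and -1.01, past 2-fold, with spike-in centring. Il5ra, the IL-5 binding chain that also uses Csf2rb, was not well above background.

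Flt3, a receptor tyrosine kinase of the same class as Csf1r, was at least 4.94-fold higher on 1 probe, with signals of 10.5 and 81.5. That spot had 3 other 8-fold spots within 300 µm, the other Flt3 probe read background in both cultures, and without the damaged areas no value was left. The difference was 0.72 after the normexp correction.

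Of 26 JAK-STAT and proximal signalling genes, 7 were higher and 19 lower, 0 of them by 2-fold, with a median of -0.074. The kinases that dock to these receptors had -0.16 for Jak1, -0.40 for Jak2 and -0.14 for Tyk2. Of 20 feedback inhibitors and target genes, 6 were higher and 14 lower, again 0 by 2-fold, with a median of -0.044. Among the inhibitors of JAK signalling, Socs2 was higher on all 3 probes, with a mean of 0.81, whereas Socs1 had -0.53, Socs3 -0.23 and Cish -0.14. The Socs1 spot had 13 other 8-fold spots within 300 µm, and without the damaged areas no value was left for it.

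The 16 transcription factors known from the control of the Csf1r locus, such as Spi1 and Runx1, had 9 higher and 7 lower values and a median of 0.013. Of 14 genes of receptor shedding and turnover, 9 were higher and 5 lower, with a median of 0.037. Timp3, an inhibitor of the metalloproteinases that cut receptors from the cell surface, had signals of 646 with DMSO and 221 with GW4064, a difference of -1.61 or 3.05-fold lower. With spike-in centring the counts were 4 higher and 12 lower for the transcription factors, 2 and 12 for shedding and turnover, 2 and 24 for the signalling genes and 5 and 15 for the feedback genes and targets. That centring moved the median of all genes to -0.17. The share of all genes lower with it was not counted, so these counts do not set the lists apart.

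**Figure D5:**
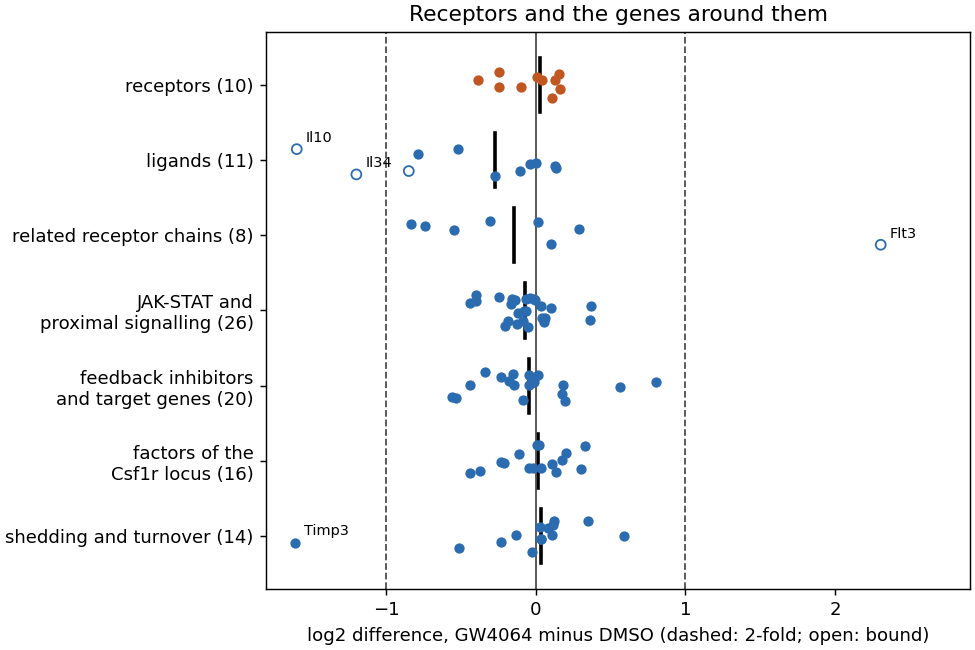
log2 difference (GW4064 minus DMSO) of the 10 receptors and of the measured genes of the 6 lists, with the median of each as a black bar, the 2-fold lines dashed, and open circles for genes measured on 1 array alone. Open circles are bounds, as the axis label says, except for Il10 and Il34, whose values are ratios of their own signals. The receptors and the signalling genes stayed within the dashed lines, and Il10, Il34, Timp3 and Flt3 lay outside them.

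The label of the cells was checked against markers. All 7 macrophage markers with a matched probe were measured, with 5 higher and 2 lower in the main scaling and 0 and 7 with spike-in centring. Their summed signals were 127114 with DMSO and 119828 with GW4064, and Cd68 had no matched probe. The 2 lower markers were the brightest. Adgre1 had 45433 with DMSO and 39729 with GW4064, a difference of -0.25, and Mrc1 had 36423 and 30036, a difference of -0.34. The 5 higher markers lay between 0.055 for Fcgr1 and 0.13 for Cd14. Of 8 stromal markers 7 were lower, with a median of -0.74 and summed signals of 25435 and 14217. Csf1, Timp3 and Osmr were lower too, but 1 array per group does not allow likeness between genes to be measured. The part of stromal cells in the differences of Csf1, Timp3 and Osmr was not tested. Mast cell and basophil markers were not well above background for 5 of 7 genes, among them Cpa3, Mcpt8 and Fcer1a, and summed to 150 and 136. Of 7 dendritic cell markers 4 were measured, with summed signals of 18447 and 18801, of which Siglech alone gave 18370 and 18682 (the mean of a bright probe and one at background), while Flt3, Zbtb46 and Ccr7 were dim, with differences of at least 2.31 for Flt3, 0.44 for Zbtb46 and -0.60 for Ccr7, and Xcr1, Clec9a and Cd209a were not above background. Of 5 T and B cell markers 2 were measured, with sums of 254 and 263, mostly from Cd3e at 209 and 248. Ms4a1, a B cell surface protein, had 35.8 with DMSO and 7.08 with GW4064, where it was not well above background, and was at least 2.47-fold lower, while Cd3g and Cd79a were not above background.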

How the data were processed

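Each group was 1 Agilent 1-colour array. The authors deposited the scanner output, in which the intensity of each spot had been background-subtracted and detrended within the array by Feature Extraction 10.7.1.1 (version from the submitters' processing notes), without scaling between arrays. They also deposited a log2 table of the same arrays whose normalization and centring are not given in the sources used here.

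The log2 of the processed intensity minus the 75th percentile over non-control spots was taken. Marked spots (non-uniform, or outliers among copies) were left out, 0 spots were saturated, and copies of a probe were averaged. A probe counted as well above background when at least 50% of its spots did, and where it did so on 1 array only, the other took its own value there or, if that was lower, the lowest value counted as well above background ("at least N-fold"). Probes were named through RefSeq accessions of GRCm38.p6 (26581 of 39429 matched). The array design was annotated on mm9, so no coordinates are given.

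Named were all receptors, every gene of the pathway lists that differed 2-fold, and ligands, chains, kinases and feedback genes from a fixed list. The members and lists were chosen with earlier results of these data known. Of the listed genes, 2 are not reported here and were left out of the counts. Also tried were other scalings, the deposited table (without bounds), normexp with an offset of 50 on median intensities, other filters, probe summaries and thresholds, and leaving out damaged areas (2 or more other 8-fold spots within 300 µm). On simulated data for GW4064 against DMSO, with 24037 probes, 198 of 200 probes changed 4-fold were recovered. The simulated GW4064 array was the DMSO array with random noise and without damaged areas, and only probes above background on both arrays were changed. Recovery of differences as small as those of the receptors was not tested. Python 3.11.15, statsmodels 0.14.6, R 4.3.3 and limma 3.58.1 were used.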

Additional observations from a re-analysis of the deposited data

How the results depend on the processing

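No paired analysis was possible because each group has 1 array, and for the same reason no replicate could be left out. The count of receptors 2-fold or more higher or lower stayed at 0 under all alternatives, including a 1.5-fold threshold. The receptors' median (0.028) moved to -0.15 with spike-in centring (8 control probes, 251 spots), where 0 receptors were higher and 10 lower, and to -0.064 with the normexp correction. Of 120 receptor values under the alternatives, 106 lay within 0.077 of the main value, the median SD over copies. Much of this was fixed in advance and does not measure stability. All 14 receptor probes were unmarked and above background on both arrays, and 7 receptors had 1 probe. Other filters and probe summaries could therefore not change most values.

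The number of genes 2-fold or more higher (276) became 495 with the deposited table, 72 with normexp, 698 without a filter on dim probes, 107 with probes above background on both arrays, 168 without damaged areas and 594 at 1.5-fold. For genes lower (367) the counts were 64 with normexp, 767 without a filter, 164 with probes above background on both arrays, 202 without damaged areas and 752 at 1.5-fold. With spike-in centring 218 genes were higher and 503 lower, and with marked spots kept 290 were higher and 449 lower. The deposited table gave 495 lower. Fewer or more genes were tested under the filters, and the deposited table sets no bound for dim probes. For the other shifts the cause was not tested. The precision of every value is limited by the number of arrays, and for Il10, Il34, Flt3 and Osmr by signals close to background.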
